A study of Mus musculus with 6 samples.

Results

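The TRAF adaptor genes were read in RNA of the cerebellar vermis, the strip along the midline of the mouse cerebellum. The group holds Traf1 to Traf7 and Tank, 8 genes taken by their symbols from a table of 21927 features, and all 8 were found there. All 8 also had a mean of at least 10 normalized counts, the level set for testing, which 15800 features reached. The group was chosen by the p of Traf1 in the comparison reported here, which was rank 5 from the smallest among lower features. The other 7 genes were taken as its relatives and its binding partner. The change of Traf1 is therefore given as a description, and nothing is supported with it.

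The tested mice are labelled LINE-1a, and in them the retrotransposon LINE-1 is activated, by the study's description. The controls are labelled dCas. Each group has 3 mice, each mouse gave 1 library, and all 6 were 8 weeks old. The sources used here name no allele, no promoter that drives one and no litter. Differences between the groups are therefore differences between 2 labelled strains, and the spread between libraries is the only measure of error. Genes that define the labelled tissue were present: none of the 6 Purkinje and 6 granule cell markers was at 0. That alone does not verify the label, since T and B cell markers were not at 0 either. The Purkinje and granule sums were at least 68919 and 72112 normalized counts in every library. The 8 T cell markers summed to at most 127.

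TRAF proteins are adaptors that bind the cytoplasmic tails of TNF receptors or act downstream of the IL-1 and Toll-like receptors. They pass the signal to kinases that activate NF-kB and JNK. Most carry a RING finger at the N-terminal end, which can attach ubiquitin, and a TRAF domain at the C-terminal end, which binds receptors and other TRAFs. Traf1 has no RING finger of its own. It is known from lymphocytes as a gene that NF-kB induces, and its protein pairs with Traf2. Tank is not a TRAF: it binds TRAF proteins and links them to the kinase TBK1, which switches on interferon genes.

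The members with the lowest log2 fold changes, Traf1 and Traf2, have unlike promoters, and both are shown here for that reason. The windows are those of RefSeq on GRCm38.p6, from 250 bases before to 50 after the gene's start, read 5′ to 3′ along the gene, with each CG dinucleotide in capitals. That of Traf1 is chr2:34961723-34962022 on the minus strand, and that of Traf2 is chr2:25546891-25547190, also on the minus strand.
Traf1: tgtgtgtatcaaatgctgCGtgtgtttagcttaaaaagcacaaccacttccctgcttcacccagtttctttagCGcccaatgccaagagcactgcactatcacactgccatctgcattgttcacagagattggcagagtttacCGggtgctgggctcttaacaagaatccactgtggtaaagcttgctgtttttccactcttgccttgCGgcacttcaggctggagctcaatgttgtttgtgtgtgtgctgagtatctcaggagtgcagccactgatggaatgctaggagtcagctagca
Traf2: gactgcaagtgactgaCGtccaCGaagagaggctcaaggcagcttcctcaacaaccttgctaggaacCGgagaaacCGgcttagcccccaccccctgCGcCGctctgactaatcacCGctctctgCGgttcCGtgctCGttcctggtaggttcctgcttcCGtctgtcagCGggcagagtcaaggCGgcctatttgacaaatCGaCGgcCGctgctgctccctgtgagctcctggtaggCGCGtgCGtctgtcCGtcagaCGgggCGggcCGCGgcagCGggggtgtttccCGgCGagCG

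The Traf1 window holds 4 CG dinucleotides and 48.7% G and C, and the Traf2 window 28 and 64.0%. Over 32851 windows of this length the median was 7 CG dinucleotides, and 31.4% of windows had fewer than Traf1. The other members ran from 3 CG in Tank to 59 in Traf3, with 33 in Traf4, 19 in Traf6, 17 in Traf5 and 13 in Traf7. The NF-kB consensus, searched on both strands, was in the windows of Traf3 and Tank and in 8.5% of all windows. The GC box GGGCGG, searched on both strands, was in those of Traf2, Traf3, Traf4, Traf5 and Traf6 and in 35.7% of all. The TATA box TATAAA was in that of Tank alone among the members and in 13.6% of all. A match of letters is a description and not a site. The genes are not neighbours of each other, although Traf1, Traf2, Traf6 and Tank all lie on chromosome 2. Traf3 is on chromosome 12, Traf4 on 11, Traf5 on 1 and Traf7 on 17.

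Reads recovered from the gene table ran from 23483158 to 27234058 in the LINE-1a libraries and from 27894408 to 33445789 in the dCas libraries. Y-linked genes put LINE-1a 3 and the 3 dCas mice down as male and the other LINE-1a mice as female, so strain and sex are partly confounded. The summed choroid plexus markers, genes of the tissue next to the vermis, were 1978, 36066 and 107590.3 normalized counts in LINE-1a 1, 2 and 3. They were 85796, 1576 and 1473 in dCas 1, 2 and 3. By this sum, both groups hold libraries with much and with little of that tissue's RNA. Most of the sum is Ttr, at 102965 in LINE-1a 3 and 81570 in dCas 1. Not every marker followed it: Clic6 was highest in dCas 3, at 760. The labels do not say whether the mice came from separate litters, so p-values measure only the spread between these libraries. In bulk tissue, fewer cells of a type and less RNA per cell cannot be told apart.

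Traf1 was lower in LINE-1a vermis. It had 113, 76.6 and 92.1 normalized counts (reads divided by the library's size factor) in LINE-1a 1, 2 and 3, against 224, 185 and 215 in dCas 1, 2 and 3. Every LINE-1a library lay below every dCas library, with a wide gap between the groups. The means were 93.9 ± 18.3 in LINE-1a and 208 ± 20.0 in dCas vermis (SD, n = 3 each), so that LINE-1a stood at 45.1% of dCas. The log2 fold change was -1.15 ± 0.21 (SE), on the scale of log2(normalized count + 1) as for every fold change below.

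These values rest on few reads. Traf1 had 140, 95 and 122 reads in the LINE-1a libraries, against 290, 252 and 323 in the dCas libraries. Counting alone gives a coefficient of variation of 10.3% at the fewest and 5.56% at the most of these reads. The observed coefficient was 19.5% among LINE-1a and 9.63% among dCas libraries. The adjusted p that led to the choice was 0.125 in limma, above the threshold of 0.05. DESeq2 on the recovered reads gave an adjusted p of 0.00024 and edgeR an adjusted p of 0.147, and over the 21 alternatives in all it ran from 0.00024 to 0.773.

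Traf1 was also read within sex and within libraries of like choroid plexus level, where each comparison leaves 1 library on one side. No dCas library was from a female. The male LINE-1a 3 had 92.1 normalized counts, below all 3 male dCas mice, a log2 difference of -1.16. Within the libraries low in choroid plexus markers, LINE-1a 1 against dCas 2 and 3, the log2 fold change was -0.82. Within those high in them, LINE-1a 2 and 3 against dCas 1, it was -1.40. The choroid plexus splits were chosen after the data were seen, and the part of sex and of that tissue in the Traf1 value was not tested.

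Markers of some cell types also tended to be lower in LINE-1a libraries. Not all of their sums followed Traf1 within a group: Traf1 was highest in dCas 1, at 224. There the Purkinje and interneuron sums were the lowest of the dCas libraries, at 92592 and 32320. In the same library the oligodendrocyte sum was the highest of the dCas libraries, at 349587. Within LINE-1a, the oligodendrocyte, astrocyte and endothelial sums followed the order of Traf1, highest in LINE-1a 1 and lowest in LINE-1a 2. The Purkinje and interneuron sums were lowest in LINE-1a 3. The summed level of 6 Purkinje cell markers was 68919 to 85807 normalized counts in LINE-1a and 92592 to 116200 in dCas libraries, without overlap, and no marker of the 6 passed the test. Its largest part is Itpr1 (log2 fold change -0.61), and the markers did not move together: 4 of 6 were below 0, while Calb1 was at 0.01 and Pcp4 at 0.14, and the groups overlapped for Pcp2. The 6 interneuron markers summed to 26486 to 33321 in LINE-1a and 32320 to 40341 in dCas libraries, with overlap, all 6 below 0 at a median log2 fold change of -0.33. The sum of 7 endothelial markers was 3815 to 5360 in LINE-1a and 5513 to 5623 in dCas libraries, also without overlap. Of these, 6 were below 0, Cldn5 at only -0.02, and Flt1 was higher in every LINE-1a library than in any dCas library (log2 fold change 0.31). Oligodendrocyte markers summed to 122999.8 to 282829 in LINE-1a and 264709.95 to 349587 in dCas libraries, with overlap. Of these 7 markers, 6 were below 0, at a median log2 fold change of -0.64. The 7 astrocyte and Bergmann glia markers summed to 33574 to 82922 in LINE-1a and 75428 to 93381 in dCas libraries, also with overlap. Of them 6 were below 0, at a median of -0.59. The part of these cells in the Traf1 value was not tested. Lymphocytes, where Traf1 is best known, left little RNA: 8 T cell markers summed to 103 to 110 in LINE-1a and 107 to 127 in dCas libraries. The 6 B cell markers summed to 48.3 to 83.2 in LINE-1a and 54.0 to 70.9 in dCas libraries. Cd3e, a chain of the T cell receptor complex, was at 16.96, 26.6 and 21.9 in LINE-1a libraries and at 40.1, 23.6 and 26.7 in dCas libraries. Of the 6 T cell markers tested, 2 were below 0, Cd3e and Cd4, and the median log2 fold change was 0.06. No T or B cell marker in the table was at 0 in all libraries. Microglia markers, 10 of them, summed to 5821 to 8464 in LINE-1a and 6053 to 8593 in dCas libraries, with groups that overlapped. Their sum was 8464, 5821 and 7781 in LINE-1a 1, 2 and 3, and 8593, 6053 and 8566 in dCas 1, 2 and 3. That is the order of Traf1 within each group, and the part of microglia in the Traf1 value was not tested.

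**Figure D1:**
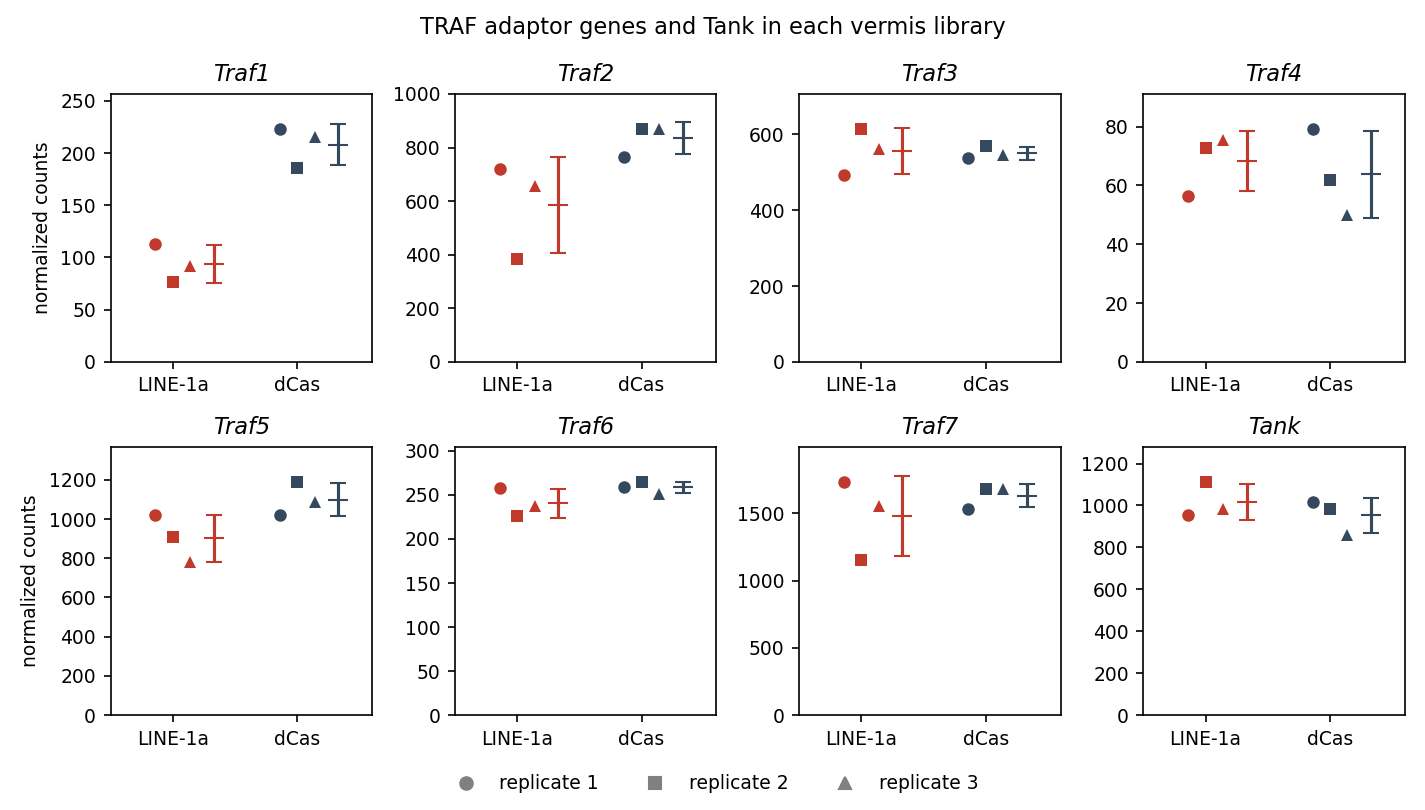
Normalized counts of the 8 genes (vertical axes, from 0) in each library of LINE-1a and dCas vermis; points are libraries, with the replicate number given by the marker shape, and the bars give mean ± SD (n = 3). Traf1 lies at 76.6 to 113 in LINE-1a and at 185 to 224 in dCas libraries, while the groups overlap for Traf3, Traf4, Traf5, Traf6, Traf7 and Tank.

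Traf2, the RING finger TRAF that recruits the ubiquitin ligases Birc2 and Birc3 to TNF receptors, had 720, 384 and 656 normalized counts in the LINE-1a libraries. It had 766, 869 and 871 in the dCas libraries. The groups did not overlap, but LINE-1a 1 lay close to dCas 1, and LINE-1a 2 lay far below the rest. The means were 587 ± 179 in LINE-1a and 835 ± 60.1 in dCas vermis (SD, n = 3 each), a log2 fold change of -0.56 ± 0.23 (SE). The value rests in part on LINE-1a 2, since without it the log2 fold change was -0.28. LINE-1a 2 also had the fewest recovered reads and the lowest summed astrocyte markers, 33574, against 64033 to 82922 in the other LINE-1a libraries and 75428 to 93381 in dCas libraries. Its oligodendrocyte, endothelial and microglia sums were the lowest of the 6 libraries as well, at 122999.8, 3815 and 5821. The Purkinje, granule cell and interneuron sums were lowest in LINE-1a 3 instead. The part of any of these cells in the Traf2 value was not tested.

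Over the whole group, 0 of 8 genes passed the Benjamini-Hochberg adjusted p of 0.05 in limma, where 0.146% of all tested features passed. At an unadjusted p under 0.05 there were 2, Traf1 and Traf2, both lower, while 7.35% of all features were lower and 7.94% higher at that level. edgeR called 0 and DESeq2 1, Traf1, against 0.146% and 0.899% of all features. The same 2 genes were the ones whose groups did not overlap, 2 of 8, where 22.1% of all features did not overlap 12.3% as lower and 9.88% as higher. The median log2 fold change of the 8 genes was -0.13, and that of all features 0.03. The members were chosen around Traf1, so these counts are given as a description.

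Traf5, a close relative of Traf2 and Traf3 that binds CD40 and other TNF receptors, had 1021, 907 and 781 normalized counts in LINE-1a vermis. It had 1020.4, 1190.1 and 1088 in dCas vermis. LINE-1a 1 and dCas 1 were nearly equal, and the other LINE-1a libraries lay below the dCas range. Its log2 fold change was -0.29 ± 0.15 (SE), and -0.19 without LINE-1a 3.

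Traf7, which has WD40 repeats in place of the TRAF domain, was the most abundant member per kb of exon (below), with 1734, 1153 and 1551 normalized counts in LINE-1a vermis. It had 1531, 1683 and 1681 in dCas vermis. LINE-1a 1 held the highest value and LINE-1a 2 the lowest, so the groups overlapped (log2 fold change -0.16 ± 0.17). Part of its exons, 4.5%, is shared with Rab26 on the same strand and 1.9% with Caskin1 on the opposite strand, and no source used here says whether counting used the strand, so a part of its reads is uncertain. Likewise 4.5% of the Traf5 exons is shared with the antisense gene Gm26879.

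Traf3, which together with Traf2 keeps the kinase Map3k14 (NIK) low and also serves interferon induction, had 494, 615 and 560 normalized counts in LINE-1a vermis. It had 536, 568 and 545 in dCas vermis. The dCas values lay inside the LINE-1a range, and the log2 fold change was 0.01 ± 0.15. Tank had 956, 1113 and 982 normalized counts in LINE-1a vermis, against 1014, 985 and 860 in dCas vermis. These groups overlapped too, and the log2 fold change was 0.09 ± 0.14.

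Traf6, the ubiquitin ligase that serves the IL-1 and Toll-like receptors, varied least, with 258, 226 and 238 normalized counts in LINE-1a vermis. It had 259, 265 and 251 in dCas vermis. LINE-1a 1 fell inside the dCas range and the other LINE-1a libraries just below it. Its coefficient of variation over all 6 libraries was 5.96%, against 42.9% for Traf1, and its log2 fold change was -0.10 ± 0.16. Traf4, known from epithelia and the developing nervous system, had 56.5, 72.6 and 75.5 normalized counts in LINE-1a vermis, against 79.4, 61.8 and 50.02 in dCas vermis. With 70 to 103 reads per library it was the least read member, and the groups overlapped (log2 fold change 0.11 ± 0.26).

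The adjusted p of the 7 genes other than Traf1 in limma ran from 0.325 for Traf2 to 0.970 for Traf3, and a p above the threshold does not show equal levels. With every library scaled to the same total, the median log2 fold change of all features was 0.15, and that of Traf6 then lay at 0.01. Traf1 was at -1.03 and Traf2 at -0.44 under that scaling.

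**Figure D2:**
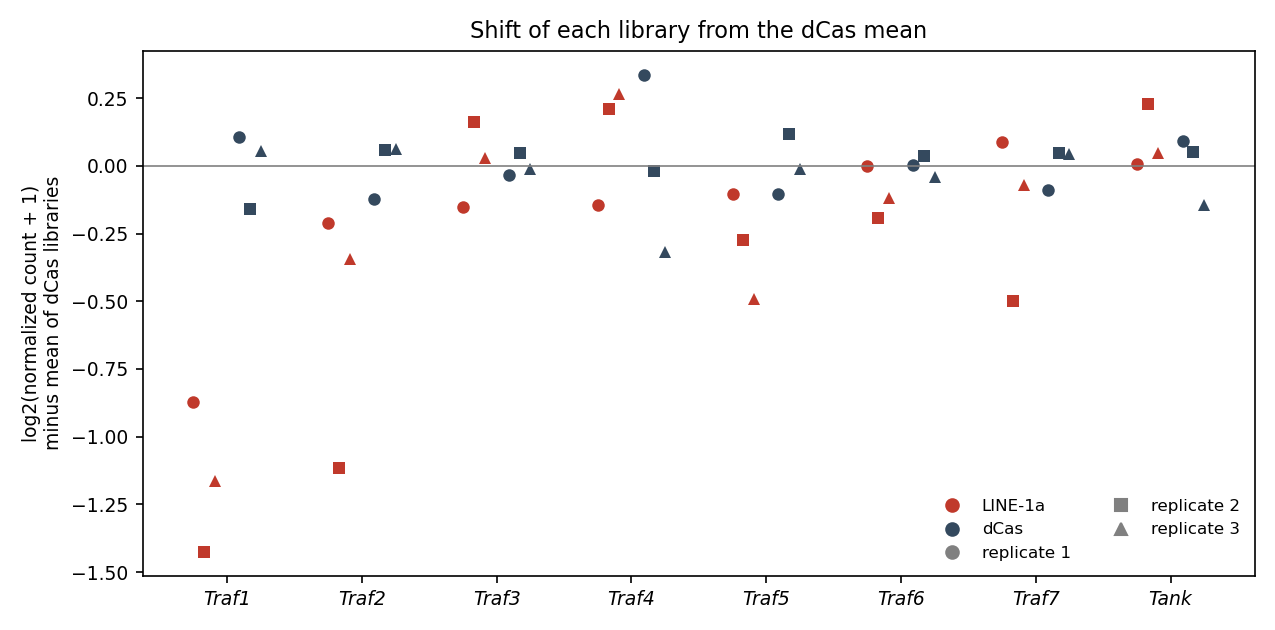
Difference of each library from the mean of the dCas libraries on the log2(normalized count + 1) scale (vertical axis) for the 8 genes; colours mark LINE-1a and dCas mice and shapes the replicate. The LINE-1a libraries lie between -1.43 and -0.87 for Traf1, and for Traf2 LINE-1a 2 stands apart at -1.12 from LINE-1a 1 and 3 at -0.21 and -0.35.

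The libraries differed in how many members left the dCas range. In LINE-1a 2, Traf1, Traf2, Traf5, Traf6 and Traf7 were below the lowest dCas value and Traf3 and Tank above the highest, so 7 of 8 lay outside it; over all tested features 34.5% were below and 40.1% above in that library. In LINE-1a 1, Traf1, Traf2 and Traf3 lay below and Traf7 above, where 22.1% of all features lay below and 22.9% above. In LINE-1a 3, Traf1, Traf2, Traf5 and Traf6 lay below and 0 members above, where 33.4% and 31.7% of features did. Traf1 and Traf2 were the members below the dCas range in all 3 LINE-1a libraries.

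Levels can be compared between genes only per length of exon, and on that scale Traf1 had the lowest mean of the members. The length is that of all annotated exons of a gene joined, 8.82 kb for Traf1 and 3.29 kb for Traf4. The transcripts present may be shorter. Before this division Traf4 was the lower, at a mean of 66.0 normalized counts against 151 for Traf1. Taken as normalized counts per kb of exon over all 6 libraries, the order of the levels was Traf7 (265 ± 36.3, SD over 6 libraries), Traf5 (219 ± 31.2), Tank (162 ± 13.5), Traf2 (139 ± 35.5), Traf3 (75.3 ± 5.44), Traf6 (31.7 ± 1.89), Traf4 (20.0 ± 3.53) and Traf1 (17.1 ± 7.35). Traf3 and Traf6, and Traf6 and Traf4, were apart in range. All other neighbours in the order overlapped in range, and for Traf4 and Traf1 the order itself differed between the groups. Traf1 was above Traf4 in 3 of 6 libraries, all dCas: it was at 12.8, 8.69 and 10.4 per kb in LINE-1a and at 25.3, 21.0 and 24.4 in dCas libraries, while Traf4 was at 17.2, 22.1 and 22.9 in LINE-1a and at 24.1, 18.8 and 15.2 in dCas libraries. Traf2 exceeded Traf3 in 5 of 6 libraries, the exception being LINE-1a 2, with 75.3 per kb for Traf2 and 83.7 per kb for Traf3.

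Set against its relatives in the same library, Traf1 gave the same picture without any scaling between libraries. The ratio of Traf1 to Traf6 per kb was 0.391, 0.303 and 0.346 in the LINE-1a libraries, against 0.771, 0.626 and 0.766 in the dCas libraries. The ratio of Traf1 to its partner Traf2 was 0.0908, 0.115 and 0.0812 in the LINE-1a libraries, against 0.169, 0.123 and 0.143 in the dCas libraries. These groups lay close, LINE-1a 2 next to dCas 2, because Traf2 was low in LINE-1a 2 as well. Of the summed level per kb of all 8 genes, Traf1 made up 1.22% ± 0.131 in LINE-1a and 2.39% ± 0.315 in dCas libraries (SD, n = 3 each), and Traf7 28.8% ± 3.60 and 28.1% ± 0.967. The ratios use the same Traf1 values and are not further evidence.

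**Figure D3:**
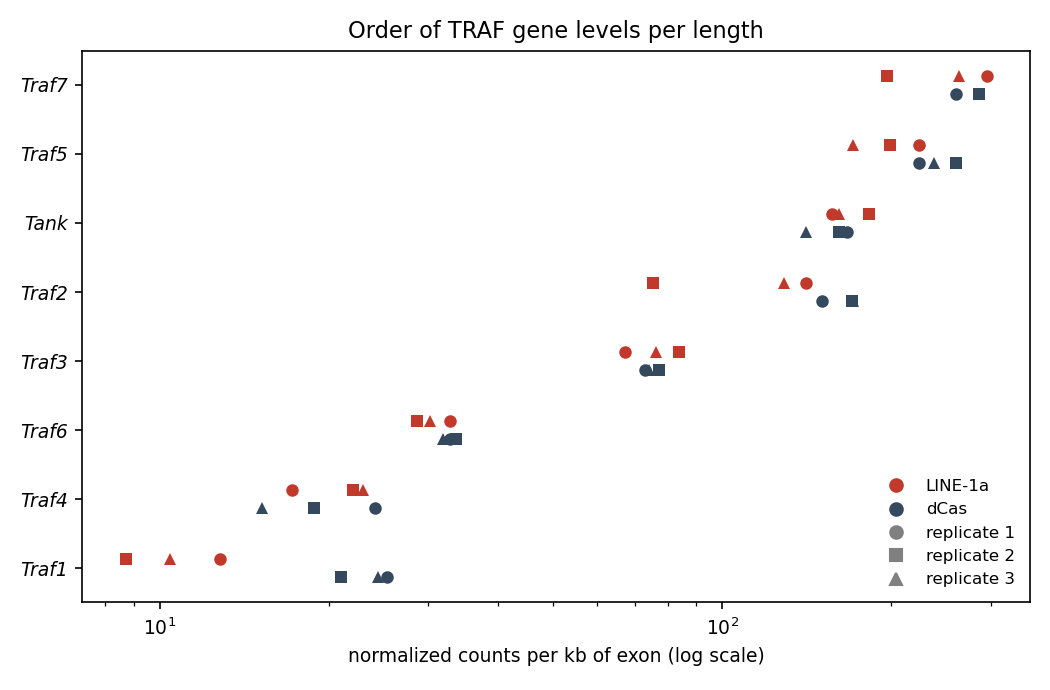
Normalized counts per kb of exon (horizontal axis, log scale) of the 8 genes in each library, ordered by the mean over all libraries; in each row the LINE-1a libraries are drawn above the dCas libraries. Traf7 stands at the top and Traf1 at the bottom, and Traf1 and Traf4 change places between LINE-1a and dCas libraries.

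The genes around the TRAF adaptors were read from 10 lists with 186 genes in all, of which 157 were tested. In limma 0 of the 157 passed in either direction, where 0.133% of all features passed as higher and 0.0127% as lower. Without adjustment, 14 of them were higher and 9 lower at p under 0.05, or 14.6% together, against 15.3% of all features. The groups did not overlap for 21.7% of them, against 22.1% of all features. edgeR called 0 of them and DESeq2 2, Irf7 and Lcn2. These shares are near those of the whole table, and the median log2 fold change of the 157 genes was -0.02.

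Among the ligands of the TNF family, 0 of 10 tested genes passed. Tnfsf10 (TRAIL), a ligand that can trigger cell death, was at 34.0 ± 11.6 in LINE-1a and 60.5 ± 3.06 normalized counts in dCas vermis, without overlap. Tnfsf9, the ligand of 4-1BB, whose receptor Traf1 binds, was at 184 ± 55.7 in LINE-1a and 119 ± 21.1 in dCas vermis. Both values rest in part on LINE-1a 2: without it the log2 fold change of Tnfsf10 was -0.57, against -0.87 in all libraries, and that of Tnfsf9 0.36, against 0.59. In the male libraries alone Tnfsf10 was at -0.48. Tnfsf9 was at 0.11 in the libraries low in choroid plexus markers and at 1.06 in those high in them. Tnf, Lta and Ltb, which make up 3 of the 10, carried equal values in LINE-1a 2 and in each dCas library, so they are not read here as separate measurements.

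Of the receptors, 0 of 20 passed. Tnfrsf11a (RANK) was at 64.5 ± 5.61 in LINE-1a and 39.1 ± 3.40 in dCas vermis, and Tnfrsf18 (GITR) at 186 ± 30.1 in LINE-1a and 125 ± 14.2 in dCas vermis. Both were higher in every LINE-1a library than in any dCas library, with log2 fold changes of 0.71 and 0.56. In the IL-1, IL-17 and Toll-like receptor arm, which signals through Traf6, 0 of 25 passed. Ticam1 (TRIF), the adaptor of Tlr3, was at 147 ± 23.8 in LINE-1a and 216 ± 10.7 in dCas vermis. The kinase Irak1 was at 476 ± 110 in LINE-1a and 316 ± 43.3 in dCas vermis.

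Among the partners and kinases of the TRAF complexes, 0 of 25 passed. Map3k1, a kinase upstream of JNK, had 408, 570 and 501 normalized counts in LINE-1a libraries, against 318, 344 and 236 in dCas libraries (log2 fold change 0.72 ± 0.20). Traip, a ubiquitin ligase first described as binding TRAF proteins, was at 56.6 ± 13.4 in LINE-1a and 102 ± 21.6 in dCas vermis. Of the ligases that Traf2 recruits, Birc2 had 1257, 844 and 1257 normalized counts in LINE-1a libraries, against 1457, 1362 and 1542 in dCas libraries (log2 fold change -0.40). Birc3 had 96.1, 73.4 and 93.6 in LINE-1a libraries, against 90.9, 51.5 and 69.4 in dCas libraries (log2 fold change 0.34). Birc2 and Birc3 were named after their values were seen, as Traf2's partners.

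The brakes of the pathway, deubiquitinases and their partners, held 0 of 15 past the threshold. Tnip2, which binds A20 and limits NF-kB, was at 94.1 ± 8.53 in LINE-1a and 56.9 ± 6.59 normalized counts in dCas vermis, and the deubiquitinase Usp25 at 909 ± 182 in LINE-1a and 656 ± 89.2 in dCas vermis. In the TBK1 and nucleic acid sensing arm, to which Tank belongs, 0 of 13 passed, and the median log2 fold change of 0.21 was the highest of the 10 lists. Tbkbp1, a TBK1 adaptor like Tank, had 247, 292 and 236 normalized counts in LINE-1a libraries, against 137, 191 and 160 in dCas libraries (log2 fold change 0.67 ± 0.20). Irf7, the transcription factor that amplifies interferon, had 257, 169 and 514 in LINE-1a libraries, against 145, 127 and 99.4 in dCas libraries (log2 fold change 1.20 ± 0.36). LINE-1a 3 was the highest and LINE-1a 2 the closest to the controls; without LINE-1a 3 the log2 fold change was 0.76. DESeq2 called Irf7 (adjusted p = 0.0385, range over the alternatives 0.0158 to 0.591).

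NF-kB itself showed 0 of 15 genes past the threshold. Chuk (IKK alpha) was at 611 ± 127 in LINE-1a and 382 ± 129 in dCas vermis, with groups that overlapped. Its log2 fold change was 0.70. It was 0.59 in the libraries low in choroid plexus markers and 0.38 in those high in them. Ikbkg (NEMO), the scaffold of the IKK complex, was at 2661 ± 934 in LINE-1a and 3916 ± 169 in dCas vermis. Without LINE-1a 2 the log2 fold change of Ikbkg was -0.31, against -0.63 in all libraries. Of the NF-kB target genes, a group to which Traf1 also belongs, 0 of 20 passed. Lcn2, a secreted iron-scavenging protein, had 18.6, 13.7 and 19.6 normalized counts in LINE-1a libraries, against 27.7, 123 and 209 in dCas libraries. Its log2 fold change of -2.33 ± 0.62 was called by DESeq2 (adjusted p = 0.000166), and by limma without dCas 1 (adjusted p = 0.00606), where it was -3.16. In the libraries high in choroid plexus markers Lcn2 was at -0.72. Over the alternatives its adjusted p ran from 0.000166 to 0.773. Tnfaip2 was at 88.2 ± 18.8 in LINE-1a and 158 ± 24.1 in dCas vermis (log2 fold change -0.84). The classical targets Nfkbia (log2 fold change 0.02) and Tnfaip3 (0.22), named after their values were seen, had groups that overlapped.

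The remaining lists gave 0 calls too. In the JNK and p38 arm, 0 of 16 passed. The scaffold Mapk8ip1 had a log2 fold change of 0.62. It was 0.22 in the libraries low in choroid plexus markers and 1.06 in those high in them. Mapk8ip3, another JNK scaffold, had a log2 fold change of -0.53, which was -0.33 without LINE-1a 2. Of the other proteins with a MATH domain, the fold that TRAF domains share, 0 of 4 tested genes passed, and Spop, a ubiquitin ligase adaptor, was at -0.32 and its relative Spopl at 0.25. Without LINE-1a 2 they were at -0.14 and 0.11.

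**Figure D4:**
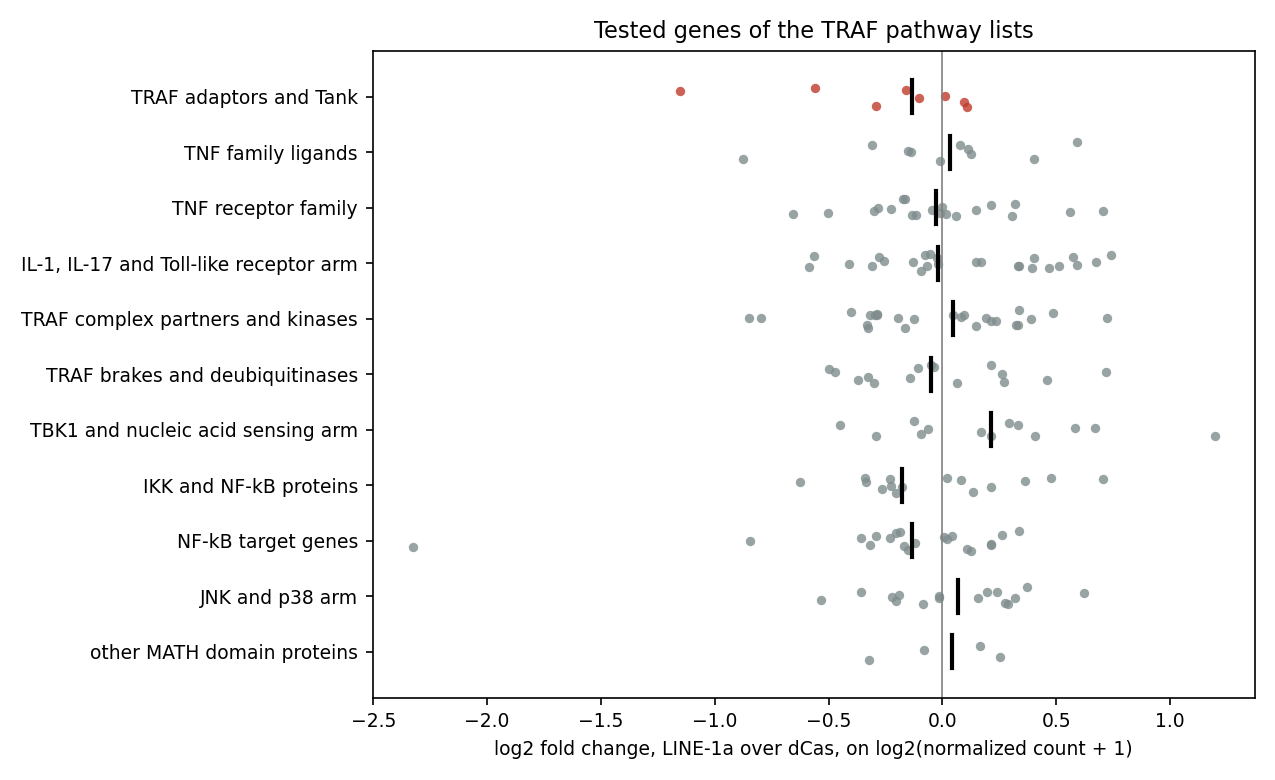
Log2 fold change of LINE-1a over dCas (horizontal axis) of the 8 TRAF genes and of the tested genes in each of 10 pathway lists (rows); each point is a gene, spread vertically for visibility, and the black bar is the list's median. The medians lie between -0.18 for the IKK and NF-kB proteins and 0.21 for the TBK1 arm, and Traf1 lies at -1.15 and Lcn2 at -2.33.

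The genes nearest to Traf1 in pattern were looked for among 13294 features with a mean of at least 50 normalized counts. Likeness was the mean absolute difference, over the 6 libraries, between the log2 values after each gene's own mean was taken away. The 5 nearest were Amhr2 (0.12), Alpl (0.14), Cd38 (0.14), Peg10 (0.15) and Sln (0.16), where the median of all candidates was 0.59. All 5 were lower in every LINE-1a library than in any dCas library, which the search itself favours. Amhr2, a receptor of anti-Müllerian hormone, was at 44.4, 27.4 and 31.7 normalized counts in LINE-1a libraries and at 86.3, 81.0 and 68.0 in dCas libraries. Cd38, an enzyme that consumes NAD, was at 789, 435 and 593 in LINE-1a libraries and at 1282, 944 and 1058 in dCas libraries. Like Traf1, these genes had their lowest value in LINE-1a 2. They lie on chromosomes 15, 4, 5, 6 and 9, not on chromosome 2.

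Traf1 lies on chromosome 2 of GRCm38 (34941750 to 34961772, minus strand, protein coding, GENCODE). Besides it, 12 genes of the deposited table start within 250 kb of its start, and 10 were tested, of which 0 passed in limma. Nearest on one side was Phf19, a Polycomb partner that starts 47.7 kb away, with 25.8, 21.8 and 18.1 normalized counts in LINE-1a libraries and 21.6, 36.8 and 39.3 in dCas libraries. Nearest on the other was Hc, which codes for complement C5 and starts 99.7 kb away, with 21.0, 16.1 and 26.4 in LINE-1a libraries and 27.7, 33.9 and 23.3 in dCas libraries. The groups overlapped for both genes, with log2 fold changes of -0.52 for Phf19 and -0.41 for Hc. Hspa5, the chaperone BiP of the endoplasmic reticulum, had 12173, 5592 and 13590 normalized counts in LINE-1a libraries, against 20482, 14497 and 19931 in dCas libraries (log2 fold change -0.89 ± 0.33). Without LINE-1a 2, its lowest library, Hspa5 was at -0.49. Over all libraries, Hspa5 was the furthest below 0 of the 10, with Phf19 next. Rabepk was at -0.25, Cutal at -0.24, Psmd5 at 0.11, Rab14 at 0.24, Gapvd1 at 0.27, Cntrl at 0.43 and Fbxw2 at 0.53 (0.30 without LINE-1a 2). The groups did not overlap for Hspa5 and Rabepk, both lower, and for Gapvd1, higher, where 22.1% of all features did not overlap. Between them the neighbours lay on both sides of 0.

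**Figure D5:**
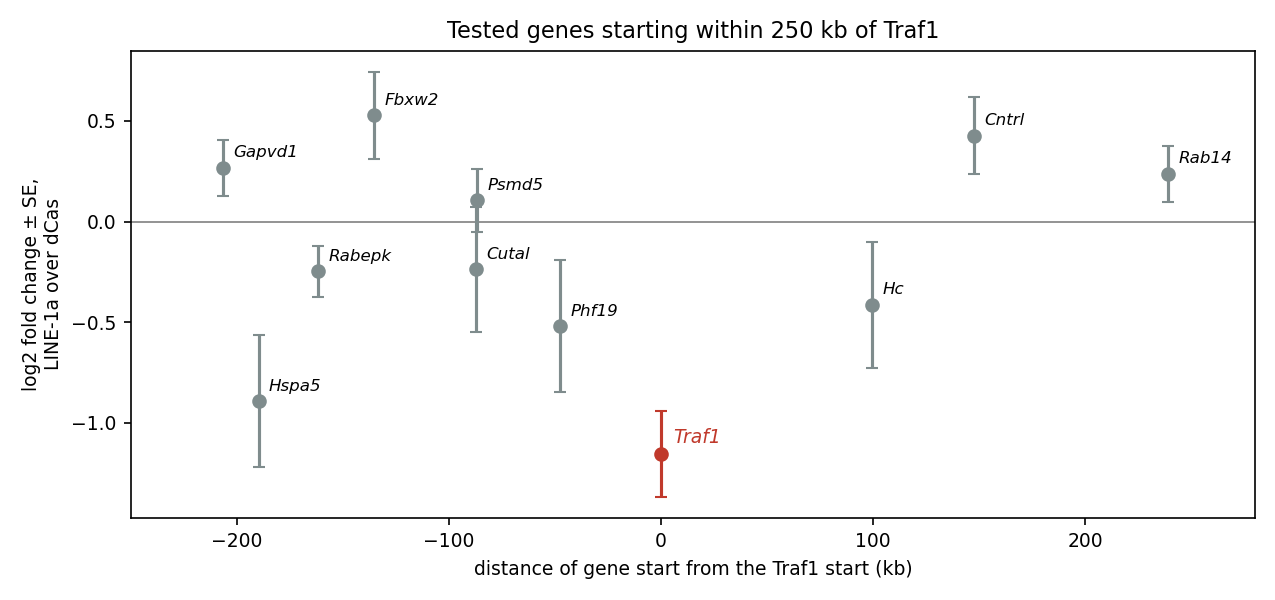
Log2 fold change ± SE of LINE-1a over dCas (vertical axis) of Traf1 and of the 10 tested genes that start within 250 kb of it, by distance from the start of Traf1 in kb (horizontal axis). Traf1, at -1.15, is the lowest, Hspa5 at -0.89 follows, and the values of the others run from -0.52 for Phf19 to 0.53 for Fbxw2.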

How the data were processed

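RNA of 6 vermis libraries was made with the RNeasy Fibrous Tissue kit and NEBNext Ultra II, per the labels' protocols. The values the authors deposited are normalized counts, a signal equal to reads divided by 1 size factor per library. Tools named in the submitters' processing notes are DESeq2, SAMtools 1.9, bedtools 2.27.1, Bowtie2 2.2.9 and STAR 2.5.3a, with builds mm10 and GRCm38. The counter and its use of strand are not given. Dividing each library by its smallest value gave whole reads, within 0.001 reads, for 100% of values. Between libraries of 1 group the chi-square per degree of freedom was 28.6 to 145.

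The 15800 features with a mean of at least 10 were tested by limma-trend (limma 3.58.1, R 4.3.3) on log2 of the normalized count plus 1, two-sided, adjusted by Benjamini-Hochberg over all of them. Of these, 530 are repeat elements listed in the same table. edgeR 4.0.16 and DESeq2 1.42.0 on the recovered reads were alternatives. A single gene tested by exact permutation of 3 against 3 cannot go below p = 0.1. The limma step was also run on simulated counts whose spread was taken from these data. They had no sex or choroid plexus differences between libraries, so that run does not check the fit against those. Lengths and positions are from GENCODE on GRCm38 and promoters from RefSeq, matched by symbol for all 8 genes. The genes named are the 8 members; up to 4 called genes per pathway list or, with none, the 2 of smallest p; the 5 nearest to Traf1; and the tested genes within 250 kb. The members, lists and tests were chosen with earlier results of these data known. The table of repeats was used for names alone, and the table of retroviral loci was not used here.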

Additional observations from a re-analysis of the deposited data

How the results depend on the processing

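Under 21 alternatives, 19 of them planned, the log2 fold change of Traf1 stayed between -1.40 and -0.82, the ends being libraries high and low in choroid plexus markers, a split chosen after the data were seen. Traf2 ran from -0.73 to -0.27 and Traf5 from -0.49 to -0.16, while Traf3, Traf4, Traf6 and Traf7 lay on both sides of 0 and Tank between 0.02 and 0.21. With DESeq2, 1 of the 8 genes (Traf1) and 2 pathway genes passed, of 142 features called. With array weights, 2 (Traf1 and Traf5) and 10 pathway genes passed, of 1220 features. These weights were 3.33 for LINE-1a 3 and 3.40 for dCas 2, against 0.296 to 0.881 for the other libraries, so those calls rest mainly on 2 libraries; limma's default weights did not converge and were not used. Over all features 36 were called with equal totals, 3 with sex as a covariate, 0 in the male libraries alone (where LINE-1a is 1 library, assumed to vary like the others), 7 in the libraries high in choroid plexus markers, and 11 to 40 with 1 library left out (11 without LINE-1a 3, 40 without dCas 1, 14 without dCas 2, 15 without dCas 3), against 23 in all libraries. With 1 library left out, 0 members and 0 to 1 pathway genes passed, Lcn2 without dCas 1; in the libraries low in choroid plexus markers it was 1, Lcn2 again. Leaving out 1 library gave Traf1 -1.29 to -1.02, and leaving out LINE-1a 2 gave Traf2 -0.28. The neighbour Cutal, at -0.24, turned to 0.032 without dCas 1 (-0.50 to 0.032 with 1 library left out) and to 0.20 in the libraries low in choroid plexus markers, where Psmd5 turned to -0.072; the cause was not tested. Replicate numbers showed no sign of pairing the mice: correlations were -0.21, 0.14 and -0.09 for equal numbers and -0.18 to 0.23 for unequal ones. With 3 mice per group this cannot exclude a pairing. The fit with the replicate block called 24 features, 0 of them members or pathway genes, with Traf1 at -1.15.

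Depth limits Traf1 and Traf4 most, with 70 to 323 reads per library; of the 18 TNF family ligands, 10 reached the level set for testing.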
